A study of Homo sapiens with 5 samples.

Results

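Histone genes were described in HaCaT cells, an immortal human keratinocyte line, with and without knockdown of AHNAK, which encodes a very large scaffold protein. Members were the rows whose symbols carry a histone name (HIST1H to HIST4H, or starting with H1F, H2AF or H3F) and whose value was above 0 in at least 1 library. Among 27933 gene symbols there were 92 matches, of which 72 were members: 59 replication-dependent genes, 10 variant genes and 3 pseudogenes or antisense RNAs (HIST2H2BC, HIST2H3PS2 and H1FX-AS1). The split followed the symbol and the GENCODE gene type. HIST2H3PS2, typed there as protein coding, was placed by its symbol. Every other protein-coding gene with a HIST symbol was counted as replication-dependent. The other 20 were listed at 0 in every library.

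The series held 2 libraries of control cells and 3 of AHNAK knockdown cells, all of total RNA from HaCaT cultures in serum-containing medium. The labels mark the samples as "si" or "NC" and give no time or reagent, and the series text speaks of a knockout. No label says whether the replicates were separate cultures, so the spread behind each p-value is that between these libraries and may be technical. Values are FPKM, fragment counts scaled to transcript length and to library size, and the read depth is unknown.

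Nucleosomes are built from the core histones H2A, H2B, H3 and H4, and H1 binds the linker DNA between them. Replication-dependent histone genes lie in clusters, mainly on chromosome 6, have no introns and are made in S phase, when new DNA has to be packaged. Their messenger RNAs normally end in a conserved stem-loop in place of a poly(A) tail, and the stem-loop is bound by SLBP. Several of these genes are also known to give polyadenylated transcripts from sites further downstream. Variant genes such as H2AFZ and H3F3B are read throughout the cell cycle and give ordinary polyadenylated messenger RNAs, while H2AFX can give both forms.

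The stem-loop is shown because it marks the replication-dependent class in sequence. The consensus is a run of 16 bases, a stem of 6 base pairs closed by a loop of 4 bases, and it was searched for on the transcript strand of GENCODE 29 as GG, 3 pyrimidines, TT, a pyrimidine, T, any base, A, 3 purines and CC. It was found in 26 of the 59 replication-dependent members and in 1 of the 10 variant members, H2AFX, against 0.117% of 57133 gene names. Most of the other replication-dependent members are annotated as little more than their coding sequence, so the letters that would hold a stem-loop are not in those transcripts. Stem letters are in capitals and the loop in lower case, with GRCh38 positions:
HIST1H2AC (chr6:26124669-26124684, plus strand): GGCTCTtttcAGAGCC
HIST3H2A (chr1:228457369-228457384, minus strand): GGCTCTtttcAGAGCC
HIST1H2BD (chr6:26158587-26158602, plus strand): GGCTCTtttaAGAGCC
HIST1H2AG (chr6:27133515-27133530, plus strand): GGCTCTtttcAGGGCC
HIST1H3E (chr6:26225596-26225611, plus strand): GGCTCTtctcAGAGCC
HIST1H4H (chr6:26285131-26285146, minus strand): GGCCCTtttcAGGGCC
H2AFX (chr11:119094898-119094913, minus strand): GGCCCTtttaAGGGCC
The form printed for HIST1H2AC was shared by 13 members of the H2A, H2B and H3 families. The form printed for HIST1H4H was held by 5 members, all of them H4 genes.

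Promoters of replication-dependent genes also carry letters that differ by family. Windows of 250 bases before the RefSeq start (GRCh38.p14) were matched for 52 replication-dependent and 8 variant members, and both strands were searched. The octamer ATTTGCAT, known from H2B promoters as a binding site of OCT1, was in 13 of 17 H2B and 9 of 12 H2A windows, in 0 of 6 H1, 0 of 8 H3 and 0 of 9 H4 windows, and in 1.63% of 35116 RefSeq windows. Many H2A and H2B genes stand head to head, so their windows overlap. AAACACA, known as the H1 box, was in 6 of 6 H1 windows and in 0 of the other 46, against 4.82% of all windows. CCAAT was in 44 of the 52 windows, with 1 of 9 among H4 genes, against 32.0% of all windows, and TATAAA in 36 of 52, against 10.7%. Of the 8 variant windows 6 held CCAAT, 4 held TATAAA, 1 held the octamer (H3F3B) and 0 the H1 box. Shown here are the most abundant member and the 2 replication-dependent members that were higher in every knockdown library by the smallest p. HIST1H1C is also shown, for a test between sets of libraries that was added after the data were seen. That test and its limits are described below. These 4 motifs and their reverse complements are in capitals:
HIST1H2BK (chr6:27146856-27147105, minus strand): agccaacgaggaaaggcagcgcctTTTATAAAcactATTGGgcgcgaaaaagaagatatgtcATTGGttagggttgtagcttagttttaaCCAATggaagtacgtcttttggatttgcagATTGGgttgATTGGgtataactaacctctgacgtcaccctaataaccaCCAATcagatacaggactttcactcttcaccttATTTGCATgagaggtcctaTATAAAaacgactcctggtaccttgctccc
HIST1H2BD (chr6:26157872-26158121, plus strand): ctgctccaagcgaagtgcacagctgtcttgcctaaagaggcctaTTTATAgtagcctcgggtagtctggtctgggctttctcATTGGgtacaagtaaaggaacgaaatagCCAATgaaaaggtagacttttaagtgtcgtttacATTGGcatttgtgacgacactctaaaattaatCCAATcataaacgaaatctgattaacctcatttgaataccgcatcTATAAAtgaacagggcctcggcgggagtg
HIST3H2A (chr1:228457874-228458123, minus strand): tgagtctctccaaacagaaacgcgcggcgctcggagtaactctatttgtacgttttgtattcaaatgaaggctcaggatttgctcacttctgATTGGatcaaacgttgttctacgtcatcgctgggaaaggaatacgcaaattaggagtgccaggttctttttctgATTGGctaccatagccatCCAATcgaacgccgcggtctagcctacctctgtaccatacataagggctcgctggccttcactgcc
HIST1H1C (chr6:26056471-26056720, minus strand): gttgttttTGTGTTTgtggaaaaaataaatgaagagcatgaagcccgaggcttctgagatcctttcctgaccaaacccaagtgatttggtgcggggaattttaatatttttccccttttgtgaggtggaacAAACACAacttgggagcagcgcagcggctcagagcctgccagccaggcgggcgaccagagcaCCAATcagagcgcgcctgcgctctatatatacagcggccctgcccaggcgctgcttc
Of these 4 windows only that of HIST1H2BK held the octamer. The H2A and H2B windows without it were those of HIST1H2AI, HIST1H2AK, HIST1H2BD, HIST1H2BL, HIST1H2BN, HIST3H2A and HIST3H2BB.

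AHNAK itself, the check of the labels, measured 204.8 and 242.0 FPKM (controls) against 113.9, 69.6 and 115.3 FPKM (knockdown, replicates in order, here and below). All 15 keratinocyte markers were present, with gene means of 35.8 to 2101 FPKM, and 2 were higher and 13 lower with knockdown (sums of 8039 and 9599 FPKM against 7537, 5812 and 6784 FPKM). Of 16 markers of blood, vessel, stromal, muscle and pigment cells none exceeded 5.25 FPKM in any library, and TYR was at 0. Their sum ranged from 7.55 to 9.27 FPKM in controls and from 9.62 to 14.5 FPKM in knockdown. Among genes under 0.3 FPKM a single ratio recurred in 20.1% to 25.1% of genes between any pair of control replicate 1 and knockdown replicates 1 and 3, called set A here. It recurred in 16.98% between control replicate 2 and knockdown replicate 2, called set B, and in at most 3.96% in other pairs. No label describes these sets, which each hold both groups.

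Most replication-dependent members had low FPKM. These are levels in the libraries, and how fully messenger RNAs without a poly(A) tail entered them was not tested. Low values are therefore not read as scarcity in the cells. Their median over the 59 members was 1.51 FPKM, and 25 of them had a mean under 1 FPKM over the 5 libraries. Those 25 had means of 0.0166 to 0.965 FPKM and never passed 1.94 FPKM. A few genes carried the class: 7 members averaged at least 10 FPKM, and the top 6 held 69.3% of the summed FPKM. HIST1H2BK alone held 30.7%, followed by HIST3H2A (12.3%), HIST1H2AC (8.83%), HIST1H1C (7.86%), HIST1H2BD (6.79%) and HIST1H4H (2.81%). Summed over the class, replication-dependent genes made up 0.0830% to 0.113% of all FPKM in a library, and variant genes 0.255% to 0.298%.

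Level went with how far the annotated transcripts that hold a stem-loop run past it. The 19 members with a transcript annotated over 100 bases past the stem-loop had a median of 4.73 FPKM. In the 7 members whose coding transcripts with a stem-loop end at most 100 bases past it the median was 1.51 FPKM. These 7 include HIST1H2BD, whose gene is annotated to chr6:26171349, far past its stem-loop, by transcripts not counted here. In the 33 members without an annotated stem-loop the median was 0.443 FPKM. The last set still spans 0.0166 to 123.4 FPKM, since it includes HIST1H2BK. These are levels per length, and the annotation the authors used for length is not given in the sources used here. Of 34 RNAs known to lack a poly(A) tail, such as RMRP, RN7SL3 and RPPH1, 19 were in the table and 4 reached a mean of 1 FPKM. All 4 had a log2 difference above 0 (median 1.12). Set A had a median of 1.95 and set B of 0.082, where 2 of the 4 were below 0, and 0 passed (limma). The 19 summed to 10.8 and 19.4 FPKM (controls) against 14.7, 17.8 and 39.7 FPKM (knockdown).

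Head-to-head pairs of H2A and H2B genes differed widely in how even the FPKM of both sides were. These are levels of RNA in the libraries, use of the promoters was not measured, and the cause of the differences was not tested. HIST1H2BK stood at a mean of 123.4 FPKM and its partner HIST1H2AH, 330 bases away by annotated starts, at 0.303 FPKM. HIST3H2A (49.4 FPKM) exceeded HIST3H2BB (2.97 FPKM) by 16.6 times across 233 bases, and HIST1H2AC (35.5 FPKM) exceeded HIST1H2BC (8.32 FPKM) by 4.27 times. In contrast HIST1H2BJ and HIST1H2AG (10.5 and 9.19 FPKM), HIST1H2BG and HIST1H2AE (4.41 and 3.64 FPKM), and HIST1H2BO and HIST1H2AM (2.20 and 2.15 FPKM) were at like levels.

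Knockdown and control were compared on log2(FPKM + 0.5) with limma over the 12196 genes that averaged 1 FPKM or more. Differences are knockdown minus control on this log2 scale, which understates the change of low genes. Of the 72 members 45 entered this fit: 34 replication-dependent genes, 9 variant genes, and HIST2H2BC and H1FX-AS1. After Benjamini-Hochberg adjustment 0 of the 45 passed 0.05 (limma, smallest adjusted p = 0.372), beside 0% of all genes. AHNAK itself, at -1.19 (SE 0.24, limma adjusted p = 0.372), did not pass either. A missing call therefore does not show that a gene was unchanged. At an unadjusted p under 0.05 there were 3 higher members, H2AFJ, HIST1H2BD and HIST3H2A, and 1 lower member, HIST1H2AK, beside 6.22% and 5.48% of all genes. Limma array weights called 1428 of all 12196 genes and 5 of the 45 members, those 4 and H3F3B. The weights were 3.98 for knockdown replicate 2 and 0.257 for replicate 3.

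Replication-dependent genes as a class showed no common difference in the pooled comparison. Among 34 genes tested 20 were higher and 14 lower, beside 51.3% of all genes higher and 48.7% lower, and their median log2 difference was 0.047, beside 0.0070 over all genes. The split was 17 and 17 after rescaling each library to the same sum, and 15 higher and 19 lower once GC content and length were corrected for. Without control replicate 1 it was 7 higher and 27 lower (median -0.27), and without control replicate 2 it was 28 higher and 6 lower (median 0.27). Groups did not overlap for 5 higher and 4 lower members, beside 16.2% and 15.8% of all genes. In bulk RNA such as this, fewer cells in S phase and less RNA per cell cannot be told apart.

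**Figure D1:**
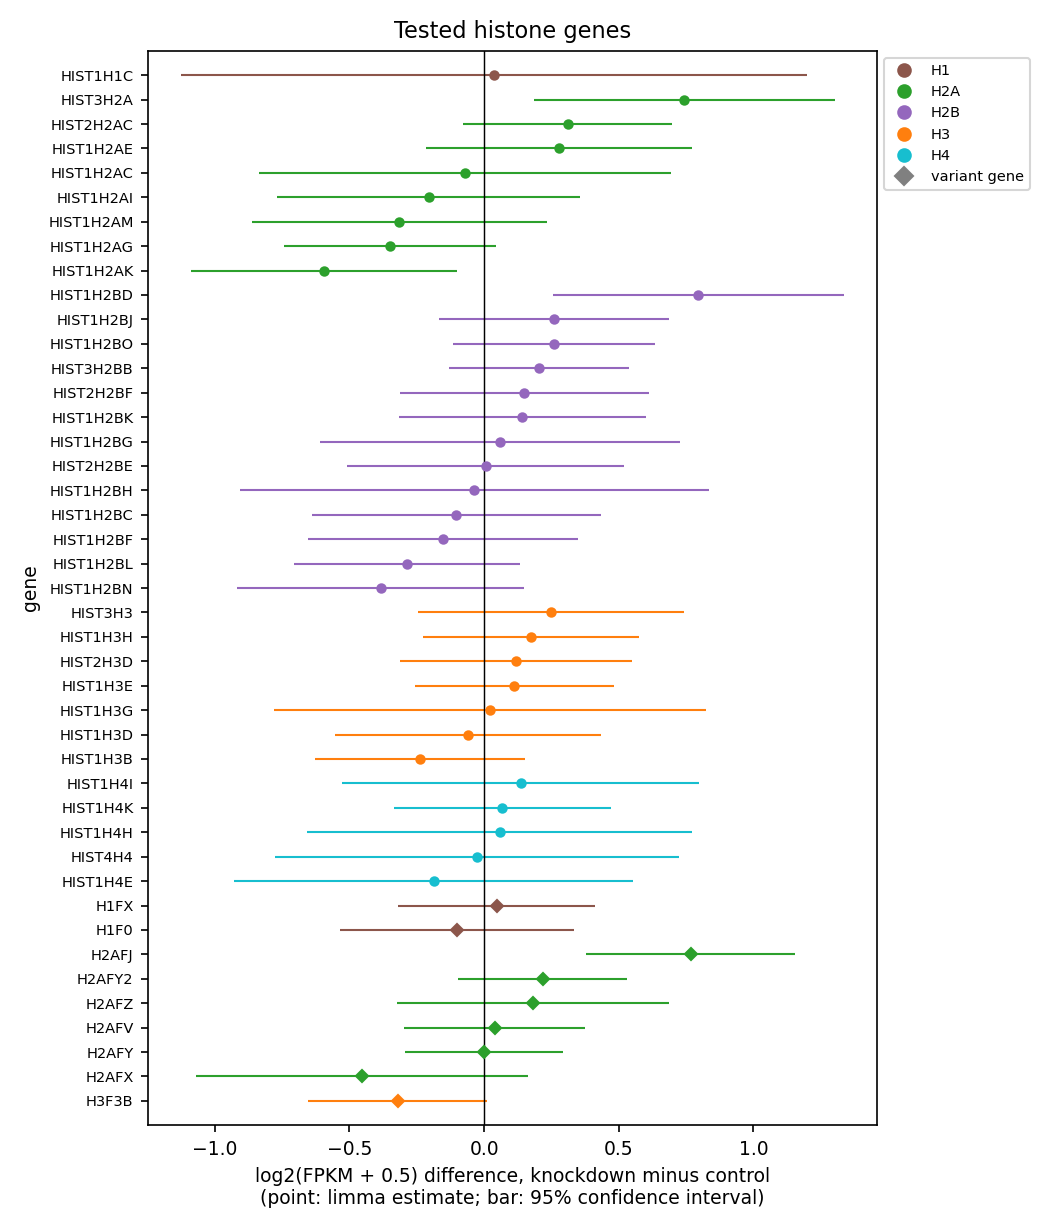
Log2 difference in FPKM + 0.5 between knockdown and control (horizontal axis, knockdown minus control) for the 34 replication-dependent (circles) and 9 variant (diamonds) histone genes tested, with 95% confidence intervals from limma. Most intervals cross 0; those of HIST3H2A, HIST1H2BD and H2AFJ lie above it and that of HIST1H2AK below it, and none of these passed after adjustment over all genes.

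Libraries of the same group also differed from each other. Control replicate 2 exceeded control replicate 1 for 29 of the 34 replication-dependent genes, beside 47.3% of all genes, with a median log2 difference of 0.42. Knockdown replicate 3 likewise exceeded knockdown replicate 2 for 29 of 34, beside 48.2% of all genes, with a median of 0.34. Knockdown replicate 1 exceeded replicate 2 for 21 of 34 (median 0.17), a pair that, like those above, is split between the sets, and knockdown replicate 3 exceeded replicate 1, in the same set, for 22 of 34 (median 0.14). Summed over the class, controls gave 310.7 and 432.5 FPKM, and knockdown libraries 418.3, 373.4 and 475.2 FPKM. Mean sums of 371.6 ± 86.1 FPKM (SD, n = 2) for control against 422.3 ± 51.0 FPKM (SD, n = 3) for knockdown made a ratio of 1.14 that is smaller than the ratio of the controls to each other. The sum of the RNAs without a poly(A) tail, given above, was also lowest in control replicate 1 and highest in knockdown replicate 3, and its part in the result was not tested.

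Within the sets the class went opposite ways. In set A 28 of 34 replication-dependent genes were higher in knockdown (median 0.32), beside 48.6% of all genes higher there. Set B had 28 of 34 lower (median -0.39), beside 50.1% of all genes higher. In 22 genes the sign was positive in set A and negative in set B, and 0 genes had the reverse, beside 2609 and 2790 of the 12196 genes tested. The summed FPKM ratio of knockdown to control came to 1.44 for set A and to 0.863 for set B. A test of the difference between sets (interaction term in limma, added after the data were seen) passed for 1 of the 34, HIST1H1C (adjusted p = 0.0107), beside 1.22% of all genes. Its unadjusted p was under 0.05 for 8 of the 34, beside 5.53% of all genes. That test has a single pair of libraries, knockdown replicates 1 and 3, as its own measure of spread. Set A has 1 control library, and set B has 1 library per group. The counts by set therefore restate the differences between libraries of the same group given above, and genes are not replicates.

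**Figure D2:**
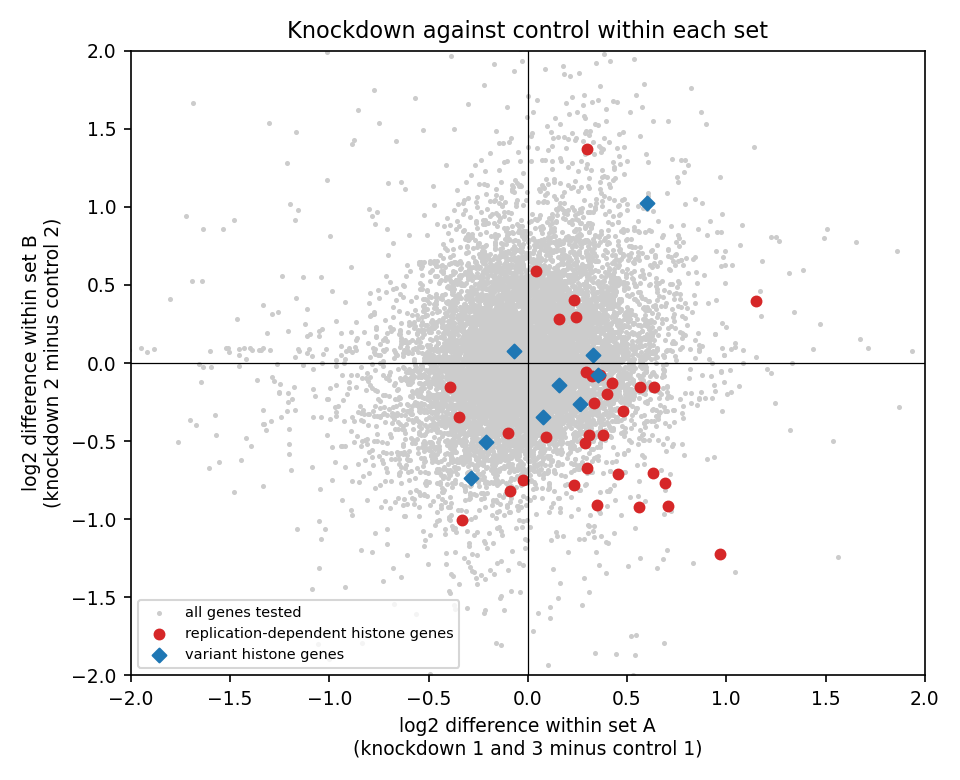
Log2 difference between knockdown and control within set A (horizontal axis) and within set B (vertical axis) for all tested genes (grey), replication-dependent histone genes (red circles) and variant histone genes (blue diamonds), with 102 of the 12196 genes beyond the axis limits. Of the red points 22 of 34 lie at the lower right, higher with knockdown in set A and lower in set B.

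Of the family sums that of H1 had set ratios furthest apart, 2.09 in set A and 0.433 in set B. HIST1H1C (H1.2, ENSG00000187837.3, chr6:26055787-26056428, minus strand, GRCh38), whose promoter is printed above, measured 18.6 and 43.3 FPKM (controls) against 26.5, 18.3 and 51.3 FPKM (knockdown). Both groups thus held a low and a high library. Its log2 difference was 0.038 (SE 0.49). Set A gave 0.97 and set B gave -1.22. The other H1 members had low FPKM: HIST1H1E was at 0.310 and 0.712 FPKM in controls and 0.303, 0.666 and 1.94 FPKM in knockdown, and HIST1H1B at 0.232 and 0.628 FPKM against 0.363, 0.240 and 0.873 FPKM. Both were highest in knockdown replicate 3, like HIST1H1C, and neither was tested.

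Among H2A genes, HIST3H2A was higher with knockdown and HIST1H2AK lower, both short of the adjusted threshold. HIST3H2A (ENSG00000181218.5, chr1:228456979-228457873, minus strand), a histone gene outside the large cluster of chromosome 6, measured 41.5 and 28.6 FPKM (controls) against 50.4, 74.7 and 51.9 FPKM (knockdown). All 3 knockdown libraries lay above both controls. Control libraries averaged 35.1 ± 9.11 (SD, n = 2) and knockdown libraries 59.0 ± 13.6 FPKM (SD, n = 3), a log2 difference of 0.74 (SE 0.23, 95% interval 0.18 to 1.30, limma adjusted p = 0.389). Set A gave 0.30 and set B gave 1.37, and without control replicate 2 the difference was 0.48. HIST3H2BB, on the other side of the same promoter, differed by 0.20 (SE 0.14). HIST1H2AK (chr6:27837947-27838339, minus strand) measured 1.99 and 2.44 FPKM (controls) against 1.31, 0.967 and 1.67 FPKM (knockdown), a log2 difference of -0.59 (SE 0.21, adjusted p = 0.394).

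HIST1H2AC measured 26.3 and 47.4 FPKM (controls) against 45.6, 24.7 and 33.5 FPKM (knockdown), so the groups overlapped and the log2 difference was -0.072 (SE 0.32). Its set values of 0.56 and -0.92 had opposite signs. HIST1H2AG measured 10.5 and 10.6 FPKM (controls) against 9.67, 8.28 and 6.86 FPKM (knockdown), lower in all 3, a log2 difference of -0.35 (SE 0.17, limma adjusted p = 0.471). Without knockdown replicate 3 it was -0.23. HIST1H2AG shares its promoter region with HIST1H2BJ, which differed by 0.26 (SE 0.18). Over the 8 tested H2A genes 3 were higher and 5 lower, with a median of -0.14, and the 13 H2A members summed to 91.2 and 102.5 FPKM in controls and 118.0, 118.8 and 107.7 FPKM in knockdown. The H2A sum was the only family sum in which all knockdown libraries lay above both controls, and the HIST3H2A means alone lay further apart than the means of this sum (96.8 and 114.9 FPKM).

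**Figure D3:**
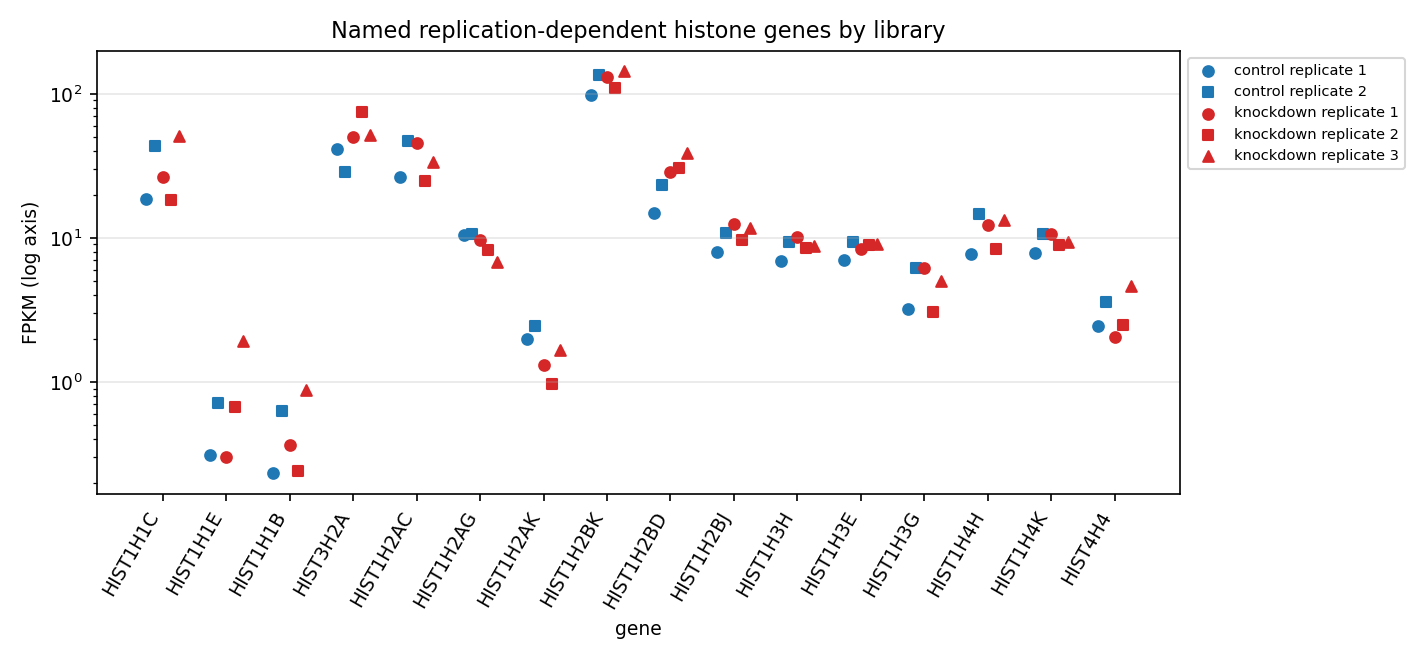
FPKM (log axis) of the named replication-dependent histone genes in each library, controls in blue and knockdown in red, with the symbol giving the replicate. HIST1H2BK lies highest at 98.1 to 144.3 FPKM; HIST3H2A and HIST1H2BD have all 3 knockdown libraries above both controls, while HIST1H1C has low and high libraries in both groups.

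H2B held both the most abundant replication-dependent member and the one with the highest log2 difference. HIST1H2BK (ENSG00000197903.7, chr6:27146418-27146798, minus strand) measured 98.1 and 135.1 FPKM (controls) against 130.4, 109.0 and 144.3 FPKM (knockdown), a log2 difference of 0.14 (SE 0.19) with overlapping groups. HIST1H2BD (ENSG00000158373.8, chr6:26158146-26171349, plus strand) measured 14.8 and 23.2 FPKM (controls) against 28.6, 30.8 and 39.0 FPKM (knockdown). Every knockdown library lay above both controls. Control libraries averaged 19.0 ± 5.95 (SD, n = 2) and knockdown libraries 32.8 ± 5.49 FPKM (SD, n = 3), a log2 difference of 0.80 (SE 0.23, 95% interval 0.26 to 1.33, limma adjusted p = 0.387). Set A gave 1.15 and set B 0.40. The difference was 0.48 without control replicate 1 and 1.11 without control replicate 2. HIST1H2BJ measured 8.03 and 10.8 FPKM (controls) against 12.5, 9.63 and 11.7 FPKM (knockdown), with overlapping groups, and its difference of 0.26 was 0.060 without control replicate 1 and 0.46 without control replicate 2. Of the 13 tested H2B genes 8 were higher and 5 lower, with a median of 0.058. The transcribed pseudogene HIST2H2BC, whose reads may be shared with other H2B copies, measured 2.20 and 2.50 FPKM (controls) against 2.05, 1.71 and 1.49 FPKM (knockdown), a log2 difference of -0.34 (SE 0.17, limma adjusted p = 0.478).

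No H3 or H4 gene reached an unadjusted p under 0.05. HIST1H3H measured 6.87 and 9.32 FPKM (controls) against 10.1, 8.49 and 8.74 FPKM (knockdown), a log2 difference of 0.17 (SE 0.17). HIST1H3E was at 7.02 and 9.33 FPKM against 8.32, 8.95 and 9.09 FPKM (0.11, SE 0.16). HIST1H3G was at 3.22 and 6.21 FPKM against 6.17, 3.05 and 4.99 FPKM (0.022, SE 0.34). In each of these the groups overlapped, and of the 7 tested H3 genes 5 were higher and 2 lower (median 0.11). Among H4 genes, whose products are nearly all the same protein, HIST1H4H was at 7.72 and 14.7 FPKM against 12.3, 8.43 and 13.3 FPKM, a log2 difference of 0.057 (SE 0.30). HIST1H4K was at 7.88 and 10.7 FPKM against 10.7, 8.88 and 9.43 FPKM (0.068, SE 0.17). HIST4H4 was at 2.43 and 3.58 FPKM against 2.07, 2.47 and 4.62 FPKM (-0.027, SE 0.31). All 5 tested H4 genes were higher in set A and lower in set B.

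**Figure D4:**
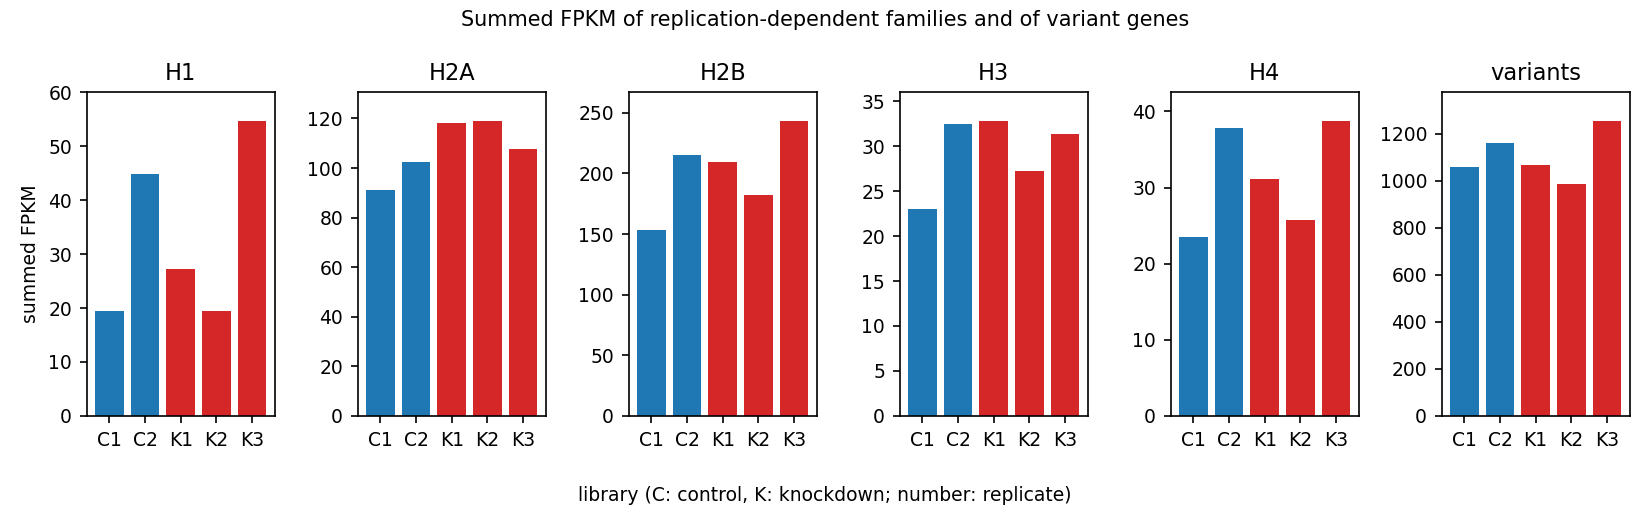
Summed FPKM per library for the 5 replication-dependent families and for the 10 variant genes, controls in blue and knockdown in red, each panel starting at 0 on its own scale. Control replicate 2 and knockdown replicate 3 are the highest libraries for H1 (44.9 and 54.6 FPKM) and H4 (37.8 and 38.7 FPKM), and control replicate 1 is the lowest in H2A, H2B, H3 and H4.

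Variant genes mostly had much higher FPKM than replication-dependent genes. In order of mean level they ran from H2AFZ through H1F0, H3F3B, H2AFX, H1FX, H2AFY, H2AFV, H2AFJ and H2AFY2 to H3F3C, whose mean of 0.831 FPKM kept it out of the test. From H1F0 down to H2AFY each neighbour in this order overlapped the next over the libraries, so the order within that run is not fixed. The ranges of H2AFJ and H2AFY2 also overlapped, but H2AFJ was the higher of the pair in every library. H3F3A, which with H3F3B encodes H3.3 and is used in all cells, was listed at 0 in every library, and no absence is read from that. The same holds for the near-identical pairs HIST2H2AA3 and HIST2H2AA4, HIST2H3A and HIST2H3C, and HIST2H4A and HIST2H4B, all listed at 0.

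H2AFJ was the member with the smallest p. It encodes H2A.J, an H2A variant described in senescent cells (ENSG00000246705.4, chr12:14774383-14778002, plus strand). H2AFJ measured 15.2 and 13.7 FPKM (controls) against 21.0, 28.4 and 25.8 FPKM (knockdown). The groups did not overlap. Control libraries averaged 14.4 ± 1.05 (SD, n = 2) and knockdown libraries 25.1 ± 3.76 FPKM (SD, n = 3), a ratio of 1.74 and a log2 difference of 0.77 (SE 0.16, 95% interval 0.38 to 1.16, limma adjusted p = 0.372). Both sets had the same sign, 0.60 in set A and 1.03 in set B, which groups without overlap fix by themselves.

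H3F3B and H2AFX, the variants with the lowest log2 differences, were lower on average without passing. H3F3B measured 167.8 and 175.3 FPKM (controls) against 138.8, 123.1 and 151.2 FPKM (knockdown), lower in all 3, a log2 difference of -0.32 (SE 0.14, limma adjusted p = 0.442). H2AFX, the variant phosphorylated at DNA breaks, measured 140.7 and 152.0 FPKM (controls) against 154.2, 91.1 and 86.4 FPKM (knockdown), a log2 difference of -0.45 (SE 0.26, adjusted p = 0.532). For H2AFX knockdown replicate 1 lay above both controls and the other 2 knockdown libraries well below them, and its difference was -0.72 without that replicate and -0.30 without knockdown replicate 3. Across 11768 genes, the log2 deviations of knockdown replicates 1 and 3 from each gene's mean correlated with GC content at Spearman's rho 0.61 and -0.55, against 0.0022 to 0.19 in the other libraries. The H2AFX transcript is 66.4% GC and the difference was -0.35 with the GC and length correction.

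H2AFZ, the variant placed at promoters, measured 327.0 and 367.9 FPKM (controls) against 338.1, 348.4 and 517.8 FPKM (knockdown), so its difference of 0.18 (SE 0.21) rests on knockdown replicate 3 and was -0.015 without it. H1F0, the linker histone of slowly dividing cells, was at 160.1 and 185.6 FPKM against 143.4, 146.2 and 198.0 FPKM (-0.10, SE 0.18). H1FX was at 99.2 and 118.1 FPKM against 119.1, 98.6 and 118.9 FPKM (0.046, SE 0.15). In all 3 of these the groups overlapped. H2AFV, the close relative of H2AFZ, was at 37.0 and 40.0 FPKM against 38.3, 36.3 and 44.4 FPKM (0.039, SE 0.14). H2AFY, which encodes macroH2A1, had the smallest SE of the variant genes, at 100.2 and 92.4 FPKM against 98.5, 97.7 and 92.5 FPKM, and its interval ran from -0.29 to 0.29. H2AFY2, which encodes macroH2A2, was at 11.8 and 12.8 FPKM against 14.4, 13.2 and 15.6 FPKM (0.22, SE 0.13). Of the 9 tested variant genes 5 were higher and 4 lower (median 0.039), and the 10 variant members summed to 1109 ± 70.3 FPKM (SD, n = 2) and 1101 ± 137.0 FPKM (SD, n = 3). The antisense RNA H1FX-AS1 was at 1.34 and 1.17 FPKM against 1.76, 1.93 and 1.61 FPKM (0.37, SE 0.15, limma adjusted p = 0.428); strand use in counting is not given, so reads of overlapping genes may be mixed.

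**Figure D5:**
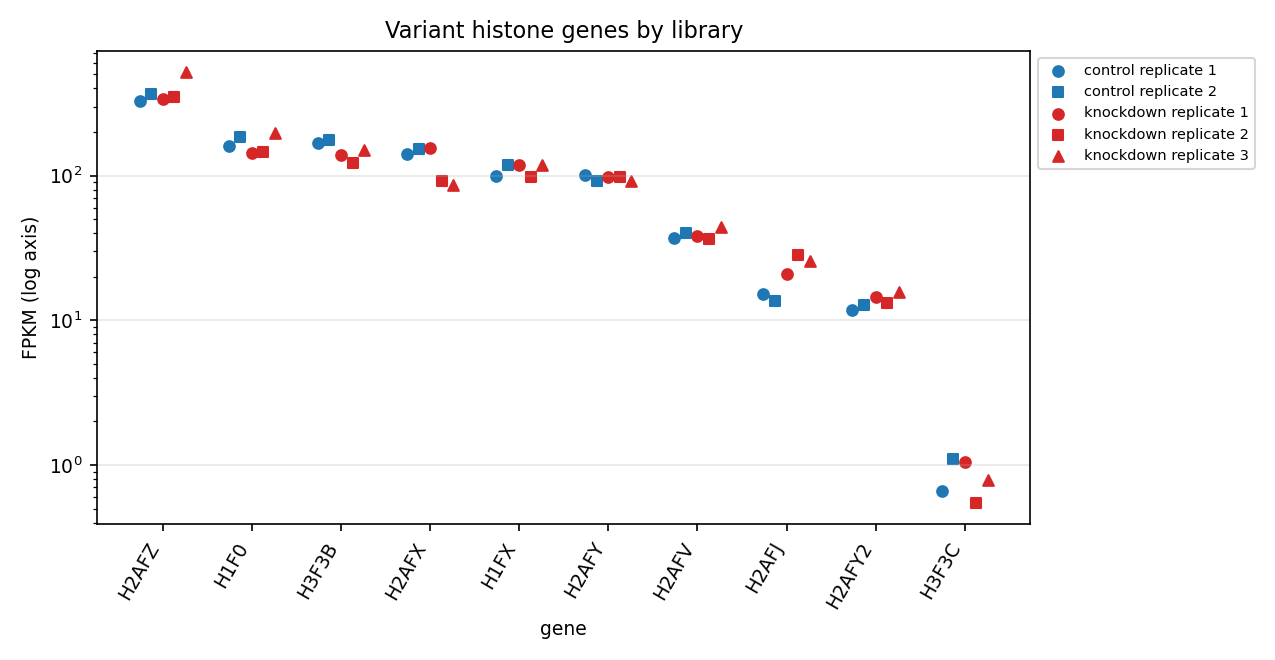
FPKM (log axis) of the 10 variant histone genes in each library, ordered by mean, controls in blue and knockdown in red. H2AFJ has all 3 knockdown libraries (21.0 to 28.4 FPKM) above both controls (13.7 and 15.2 FPKM), and H2AFX has 2 knockdown libraries below the controls and 1 above.

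Genes that make and process histone messenger RNA were mostly lower with knockdown, none past the threshold. Of 23 tested factors 7 were higher and 16 lower, with a median of -0.11 (set A -0.15, set B -0.060) beside 48.7% lower and a median of 0.0070 over all genes, and 0 passed (limma). At an unadjusted p under 0.05 there were 3 lower and 0 higher, beside 5.48% lower and 6.22% higher of all genes. CASP8AP2 (FLASH), a component of the histone locus body that acts in 3′ end processing, measured 4.68 and 3.90 FPKM (controls) against 3.10, 3.16 and 2.86 FPKM (knockdown), lower in all 3 (-0.43, SE 0.14, limma adjusted p = 0.393). CCNE1, the cyclin whose kinase activates NPAT, was at 4.54 and 3.34 FPKM against 2.64, 2.57 and 2.07 FPKM (-0.59, SE 0.18, adjusted p = 0.387). The third was CCNE2 (-0.36).

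NPAT, the coactivator of histone transcription, was at 5.04 and 4.28 FPKM against 4.56, 5.10 and 4.30 FPKM, with an interval of -0.35 to 0.34. SLBP, the stem-loop binding protein, was at 31.5 and 28.4 FPKM against 26.5, 25.8 and 28.5 FPKM (-0.15, SE 0.13). LSM10 and LSM11, parts of the U7 particle that guides cleavage, differed by -0.17 (SE 0.18) and 0.028 (SE 0.14), and ERI1, an exonuclease that trims the stem-loop end, by 0.045 (SE 0.15). All 5 had overlapping groups. Histone chaperones split 14 higher and 15 lower of 29 (median -0.071), with SRCAP at -0.41 (SE 0.24) and HJURP at -0.27 (SE 0.17) the members of smallest p. DNA replication genes split 18 higher and 25 lower of 43 (median -0.043), with CLSPN at -0.51 (SE 0.15) and UHRF1 at -0.68 (SE 0.30). Summed FPKM of the DNA replication genes was 1468 and 1434 in controls and 1499, 1310 and 1467 in knockdown. The replication-dependent histone sums had another order, lowest in control replicate 1 and highest in knockdown replicate 3. By set, DNA replication genes split 18 higher and 25 lower in set A, and 11 higher and 32 lower in set B. Replication-dependent histone genes had 28 of 34 higher in set A and 28 of 34 lower in set B. Whether S-phase content has a part in the histone differences was not tested.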

How the data were processed

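The authors deposited 1 table of FPKM values of genes by library. HISAT2 2.0.1 and StringTie 2.0.6 are named in the submitters' processing notes, with the builds GRCh38 and mm9 and no roles. Annotation and strand use: not given in the sources used here. FPKM are scaled to library size, so the sum of FPKM (374215 to 420541 per library) is no depth, and depth is unknown. Genes averaging 1 FPKM or more were fitted as log2(FPKM + 0.5) with limma 3.58.1 in R 4.3.3 (eBayes with an intensity trend, no covariate, two-sided, Benjamini-Hochberg over 12196 genes, threshold 0.05). In 5 simulated runs of this comparison with 12196 genes it recovered 99.3% of log2 changes of 2, with 57 false among 1050 calls. That change is larger than those of AHNAK (-1.19) and of all tested members (-0.59 to 0.80), and recovery at such sizes was not simulated. The simulated noise was independent between genes, without the differences between sets of libraries seen here. With 2 against 3 libraries an exact permutation test cannot go below 0.1, so none was run. Named were AHNAK, the 3 most abundant genes of each replication-dependent family, variant genes of at least 10 FPKM, the 4 members of smallest p in each direction and fixed genes; of the histone messenger RNA factors 6 fixed genes, and of other pathway lists the 2 of smallest p. CCNE1, CCNE2, the gene pairs and the promoter motifs were chosen for description after values were seen. The members and lists were chosen with earlier results of these data known. Positions and transcripts came from GENCODE 29 by symbol, promoters from RefSeq (GRCh38.p14) by Ensembl identifier. As alternatives the pseudocount, filter, scaling, variance model and library weights were varied, a block by replicate or by set and a loess correction (span 0.3) for GC content and length were added, and libraries were left out singly; the split by sets and its interaction term were added after the data were seen.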

Additional observations from a re-analysis of the deposited data

How the results depend on the processing

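The number of genes past the threshold was 0, and 1 with a pseudocount of 1, without the intensity trend and with robust empirical Bayes, 1428 with array weights, and 0 to 9 with libraries left out singly (9 without control replicate 1). The median log2 difference of replication-dependent genes, 0.047, became -0.0055 with equal FPKM sums, -0.21 with array weights, -0.047 with the GC and length correction, 0.32 within set A and -0.39 within set B, and ran from -0.27 to 0.27 with libraries left out. That of variant genes, 0.039, became -0.015 with equal sums, -0.0011 with quantile normalization, -0.058 with array weights, 0.16 within set A and -0.14 within set B, and ran from -0.018 to 0.099. The ratio of summed FPKM, 1.14, was 1.44 within set A and 0.863 within set B, and ran from 0.976 without control replicate 1 to 1.36 without control replicate 2. The cause of these shifts was not tested.

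Of 420 refits over 25 named genes 366 kept direction and side of the threshold, 49 changed sign and 5 newly passed. All 5 passed with array weights, a fit that called 1428 of all 12196 genes. They were H2AFJ (adjusted p = 0.0340), HIST1H2AK (0.0363), HIST3H2A (0.0377), H3F3B (0.0404) and HIST1H2BD (0.0493) by limma. With equal FPKM sums the sign changed for HIST1H1C (-0.016), HIST1H3G (-0.027), H1FX (-0.0083) and H2AFV (-0.015), and with quantile normalization for H1FX (-0.0011). With array weights it changed for HIST1H1C (-0.49), HIST1H2BK (-0.028), HIST1H3G (-0.36), HIST1H4H (-0.23), HIST1H4K (-0.013), H1FX (-0.089), H2AFV (-0.058) and H2AFY (0.019). With the GC and length correction it changed for HIST1H1C (-0.056), HIST1H3G (-0.072), HIST1H4H (-0.038), H2AFV (-0.0050) and H2AFY (0.037). Leaving out libraries singly, where a lone control is assumed to vary like the other group, gave ranges that cross 0: -0.56 to 0.64 for HIST1H1C, -0.49 to 0.35 for HIST1H2AC, -0.089 to 0.37 for HIST1H2BK, -0.034 to 0.38 for HIST1H3H, -0.082 to 0.30 for HIST1H3E, -0.40 to 0.45 for HIST1H3G, -0.39 to 0.50 for HIST1H4H, -0.14 to 0.28 for HIST1H4K, -0.32 to 0.21 for HIST4H4, -0.25 to 0.0062 for H1F0, -0.079 to 0.17 for H1FX, -0.044 to 0.099 for H2AFV, -0.058 to 0.057 for H2AFY and -0.015 to 0.29 for H2AFZ.

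Replicate numbers 1 and 2 occur in both groups, without a label that says they share a batch. Same-numbered libraries did fall in the same set. For number 1, in set A, a single ratio recurred in 22.2% of low genes, and for number 2, in set B, in 16.98%. Deviations of same-numbered libraries correlated at -0.064 and -0.58. Each correlation rests on 1 pair of libraries, so these values cannot decide whether the numbers mark a pairing. The main fit took the numbers as names. With the replicate block, which drops knockdown replicate 3, the medians were -0.068 for replication-dependent and -0.015 for variant genes, and the sign changed for HIST1H1C (-0.36), HIST1H3G (-0.037), HIST1H4H (-0.065), H2AFV (-0.044), H2AFY (0.028) and H2AFZ (-0.015). The count of calls was 0 with the block as without it. Depth is unknown, so no limit of detection can be given for the 20 symbols listed at 0.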
